A study of Mus musculus with 32 samples.

Results

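The hearts described here are 8 of the 32 in the series. They came from 4 mice that carried the S59L mutation of CHCHD10 on 1 allele (C10S59L) and from 4 mice with wild-type CHCHD10 (C10WT). All 8 mice were heterozygous for OMA1 (OMA1+/-) and 20 weeks old, and each group held 2 females and 2 males. They were chosen by the genotype, age and replicate number in their titles, and the comparison between them runs across 19505 genes. The mutations are named by human residue numbers, as in the study, and S59L is a knockin allele in an otherwise untreated mouse on normal chow. The other 24 hearts were C10S59L and C10WT hearts that lacked OMA1 (OMA1-/-) at the same age, and C10WT and C10G58R hearts on both OMA1 genotypes at 14 weeks. No heart of the series carried 2 functional OMA1 alleles by its label, so the controls here share the loss of 1 OMA1 allele with the mutants. RNA of each heart was measured on its own array, and all values below are log2 intensities of genes, on which a difference of 1 is a doubling.

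CHCHD10 is a small protein of the mitochondrial intermembrane space that lies at the cristae with its paralog CHCHD2, and dominant mutations in it cause myopathy, cardiomyopathy and motor neuron disease in people. OMA1 is a protease of the inner mitochondrial membrane that is switched on by membrane stress. It cuts the fusion protein OPA1 and also DELE1, which then activates the kinase HRI. HRI phosphorylates eIF2alpha, most translation falls, and the transcription factor ATF4 is made and turns on genes for amino acid uptake and synthesis, a program called the integrated stress response (ISR). NRF2, another stress-responsive transcription factor, drives genes for glutathione, thioredoxin and the removal of reactive compounds. In the heart these programs are known from several models of mitochondrial disease.

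C10S59L hearts differed from C10WT hearts in 7117 of 19505 genes (36.5% of all genes tested, limma, adjusted p under 0.05). Of these, 3623 were higher in C10S59L (18.6% of genes tested) and 3494 were lower (17.9%). The 4 values of one group lay beyond all 4 of the other for 3798 genes on the higher side (19.5%) and 3598 on the lower side (18.4%). So a list in which about 1 gene in 5 moves in a direction does no more than all genes tested. The changes were also large, with 658 genes higher and 101 lower by more than 2 on the log2 scale, and 73 higher and 6 lower by more than 4. Many of the falls were of genes near the floor of the array, since 1697 of the 3494 lay below the array background (6.59) in both groups. Among the 10629 genes above it in either group 3421 rose and 1797 fell. For a list made mostly of expressed genes these counts are the nearer yardstick, and by it a larger share rises than over all genes. The median difference was -0.15 over all genes and 0.26 over genes above background.

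The arrays of the 2 groups also differed in the spread of their values, and this bears on small changes. The SD over genes was 2.78 to 2.90 on the C10WT arrays and 3.08 to 3.20 on the C10S59L arrays, while the share of genes above background was 50.1% to 51.4% on all 8. When the arrays were forced to the same distribution (quantile normalization), the median of genes above background moved by -0.33 to -0.07 and 5814 genes were called, 2756 of them higher. Of the genes called before, 4622 were called again in the same direction and 0 in the opposite one. The markers of several cell types also differed between single hearts. The mean of the fat cell markers was 12.35 in C10S59L replicate 1, 8.66 in replicate 4, and 7.19 and 6.53 in the others, against 7.32 to 7.46 in C10WT. The mean of the atrial markers was 13.95, 13.92, 9.80 and 11.95 in C10S59L replicates 1 to 4 and 7.67 to 9.90 in C10WT. Cardiomyocyte markers were high in all 8 hearts but averaged lower in each C10S59L heart (17.14 to 17.25) than in any C10WT heart (17.99 to 18.18). Lymphocyte and neutrophil markers averaged below background in all 8. Without C10S59L replicate 1, 6587 genes were called, and 7863 with the fat marker mean as a covariate. Otherwise the part of tissue sampling in the results below was not tested except where a value is given.

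**Figure D1:**
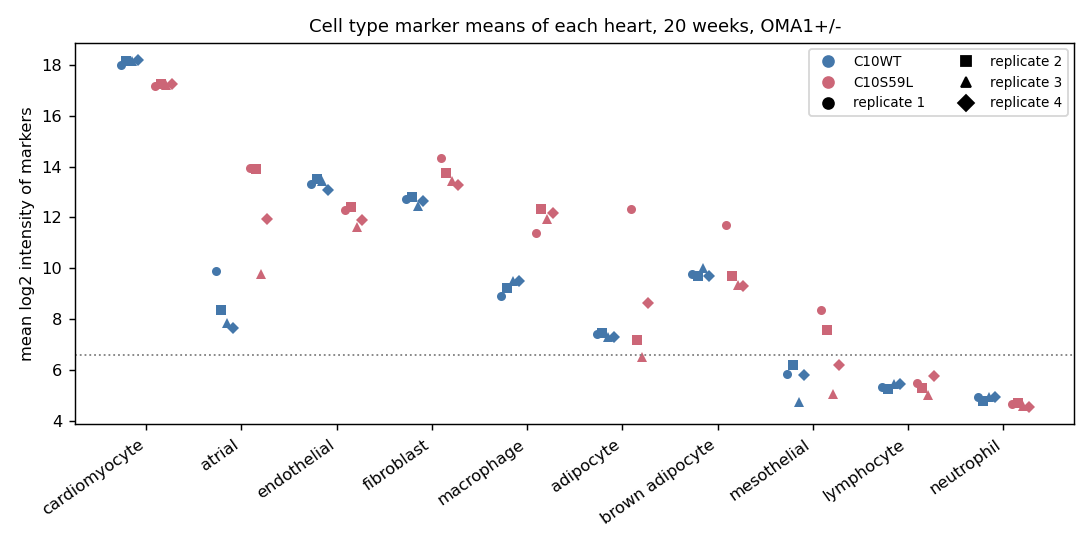
Mean log2 intensity of cell type markers (vertical axis) in each of the 4 C10WT and 4 C10S59L hearts on OMA1+/-, with the replicate number given by the symbol and the array background as a dotted line. C10S59L replicate 1 stands apart in fat cell markers (12.35), atrial markers are spread from 9.80 to 13.95 in C10S59L, and macrophage markers lie at 11.38 to 12.32 against 8.93 to 9.50.

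The targeted genes were read first. Chchd10 itself was at 14.89, 15.74, 15.69 and 16.01 in the C10WT hearts and at 16.65, 16.95, 17.03 and 16.60 in the C10S59L hearts. All 4 mutant values lay above the controls, and the mean was higher by 1.22 ± 0.28 (SE, adjusted p = 0.00298). Chchd2, the paralog, was 14.08 ± 0.03 and 14.07 ± 0.18 (SD, n = 4), a difference of 0.00 ± 0.22 (adjusted p = 0.992). Oma1 was 9.76 ± 0.19 in C10WT and 9.78 ± 0.37 in C10S59L and did not pass the test, with a difference of 0.02 ± 0.24 here and -0.40 after quantile normalization. Whether the array reads a deleted or a retained stretch of Oma1 is unknown, so these values do not check the OMA1 genotype.

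ISR genes rose in C10S59L hearts. Of 14 measured ISR transcription factors and regulators, 11 rose, 1 fell and 2 did not pass, with a median difference of 1.82. Atf4, the central factor, was at 12.42, 11.87, 11.95 and 11.92 in C10WT hearts and at 15.63, 15.63, 15.89 and 15.89 in C10S59L hearts. The groups were far apart, and the rise of 3.72 ± 0.34 (adjusted p = 4.65e-07) is a 13.2-fold change. Atf5, a related factor, rose from 7.59 ± 0.25 to 11.29 ± 0.79, by 3.70 ± 0.42. Ddit3, which encodes CHOP, rose by 2.06 ± 0.41, from 9.44 to 11.24 in C10WT to 11.98 to 13.13 in C10S59L. Trib3, a pseudokinase that damps the ATF4 program, rose less (1.58 ± 0.41), as did Cebpg (1.31 ± 0.25), a partner of ATF4, and Atf3 (1.30). Myc, a growth factor-responsive transcription factor, went from 6.39 ± 0.32, with 3 of 4 arrays below background, to 10.60 ± 0.16. Eif4ebp1, the inhibitor of cap-dependent translation, rose by 3.53 and Nupr1, a stress-induced chromatin protein, by 3.16. Chac1, a glutathione-degrading enzyme, was below background in all C10WT hearts and at 7.40 to 9.42 in C10S59L hearts, at least 1.74 higher. The gene that fell was Vldlr, a lipoprotein receptor, from 13.84 ± 0.36 to 12.49 ± 0.60.

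Transcripts of the relay upstream of these genes moved little. Their levels do not report the cutting of DELE1 or the phosphorylation of eIF2alpha. Of 9 measured genes from Oma1 to the eIF2alpha kinases and phosphatase subunits, 2 rose and 0 fell. Eif2ak1, which encodes HRI, was higher by 0.40 and Dele1 lower by 0.49 in the mean, and neither passed the test. Eif2ak2 (PKR, the kinase that senses double-stranded RNA) rose by 0.86, a call lost after quantile normalization. The other call, Ppp1r15a, was at or near background in both groups. The median of this list was 0.40, and it was -0.02 after quantile normalization.

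Enzymes that make amino acids and folate intermediates were among the largest changes on the array. Mthfd2, the mitochondrial folate enzyme that is scarce in normal adult tissue, was at 7.97, 7.43, 6.55 and 8.29 in C10WT and at 14.45, 14.76, 15.51 and 15.20 in C10S59L. The mutant values all lay far above the controls, a difference of 7.42 ± 0.51 (adjusted p = 4.40e-08). Asns, asparagine synthetase, was at 9.28, 8.82, 9.02 and 9.10 in C10WT against 15.49, 16.01, 15.98 and 16.01 in C10S59L, a difference of 6.82 ± 0.36 or 113-fold. Psat1, the serine synthesis aminotransferase, went from 5.54 to 6.98 up to 12.75 to 13.09, a fitted difference of 6.71 ± 0.57. Phgdh, which opens the serine pathway, rose by a fitted 4.79 ± 0.26 (as with Psat1, 3 of 4 C10WT arrays were below background) and Aldh18a1, which opens proline synthesis, by 4.94 ± 0.36, each with 4 mutant values above all controls. In all, 8 of 11 measured genes of serine, proline, asparagine and transsulfuration metabolism rose and 0 fell (median 1.82), and the 3 that did not pass were Psph, Cbs and Pycrl. Psph, the last enzyme of serine synthesis, was thus apart from the enzymes before it, with a difference of -0.45.

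Of 10 measured folate enzymes, 5 rose and 0 fell. The rises were Mthfd2, Aldh1l2 (at least 3.23, below background in C10WT), Shmt2 (3.23 ± 0.32), Mthfd1l (2.53) and Tyms (0.81). The mitochondrial Mthfd2l and Slc25a32 were at -0.21 and 0.49 and the cytosolic Mthfd1 at 0.21, and none of these passed. The cytosolic Shmt1 had 4 mutant values above all controls but missed the threshold (adjusted p = 0.0535), and Aldh1l1 was below background in both groups.

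Amino acid transporters and the enzymes that charge tRNAs rose with them. Of 16 transporters 12 rose and 0 fell (median 1.76). Slc7a5, the large neutral amino acid transporter, was below background in each C10WT heart (5.57, 5.84, 6.32 and 6.24) and at 11.68, 11.85, 12.62 and 12.50 in C10S59L hearts, at least 5.57 higher. Slc7a3, a carrier of arginine and lysine, was at least 5.35 higher. Slc38a1, a glutamine carrier, rose by 4.31 ± 0.41, Slc7a11, the cystine importer, by 3.67 ± 0.35, and Slc3a2, the heavy chain that Slc7a5 and Slc7a11 share, by 3.18. Of 18 cytosolic tRNA synthetases 16 rose and 0 fell (median 2.07), led by Gars (3.44 ± 0.32), Iars (3.24) and Sars (3.13). Qars and Farsa were at 0.20 and 0.17 and did not pass. In the mitochondrial set 7 of 19 rose and 2 fell, and after quantile normalization the counts were 2 and 3.

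Of 5 measured genes of secreted stress factors 2 rose and 0 fell, and Gdf15 was not among the genes tested. Ostn, which encodes the secreted peptide osteocrin, was at 6.85, 6.75, 6.78 and 7.33 in C10WT and at 13.83, 15.31, 15.04 and 15.73 in C10S59L. That difference, 8.05 ± 0.67, was the second largest rise under the rule for naming genes. Fgf21, the hormone often raised in mitochondrial disease, was below background in all 4 C10WT hearts and at 6.21, 6.74, 7.51 and 7.71 in C10S59L hearts. Its mean rise was at least 0.45 (adjusted p = 2.23e-04), and the higher values were those of the 2 males. Metrnl, Angptl4 and Angptl6 did not pass.

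**Figure D2:**
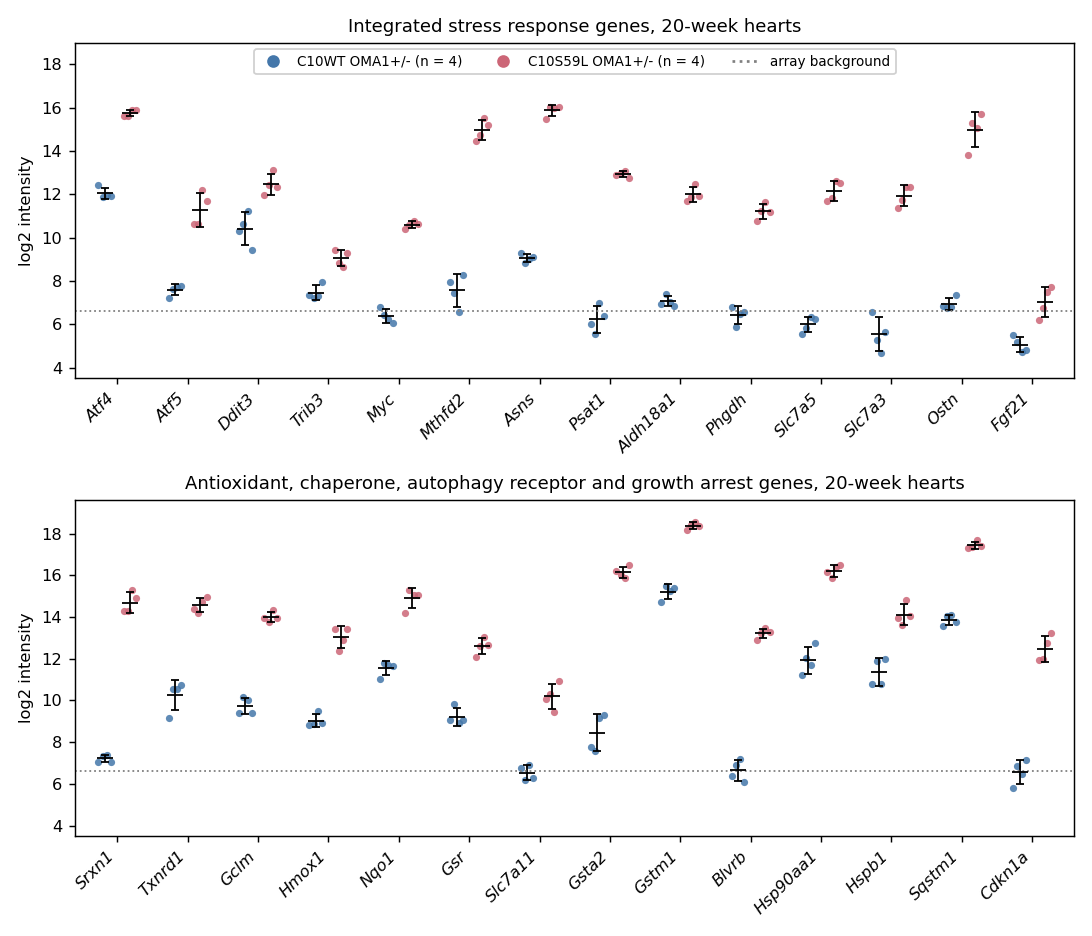
Log2 intensity (vertical axis) of ISR genes (top) and of antioxidant, chaperone, autophagy receptor and growth arrest genes (bottom) in the C10WT and C10S59L hearts on OMA1+/-, 1 point per heart, with the mean and SD as black bars and the array background as a dotted line. In all 28 genes the 4 C10S59L values lie above the 4 C10WT values, for example in Asns (9.06 to 15.87 in the mean) and Trib3 (7.46 to 9.05).

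Promoters of the rising genes were searched for the letters that ATF4 and NRF2 are known to bind. RefSeq promoter windows (GRCm38.p6) were used, and the 250 bases before each start were searched on both strands for TGATGNAA, the composite site of ATF4 and C/EBP factors. Of 54 genes that rose in the ISR, secreted factor, folate, amino acid, transporter and cytosolic synthetase lists, 39 had a window and 9 of these held the letters (23.1%), against 539 of 15691 genes tested that had a window (3.44%) and 3.45% of all 32851 windows. The 9 were Asns, Atf3, Chac1, Fgf21, Gars, Got1, Nupr1, Slc7a11 and Tars. Of the 15 other members of these lists with a window, 1 held them. These counts describe the windows, and a match is not a bound site. The stretches of 6 of these genes are shown, with rises from Atf3 (1.30) to Asns (6.82). All 9 rose because only rising genes were counted, and Gars (3.44), Got1 (2.61) and Tars (2.07) are not shown. Slc7a11 held a second match 66 bases before its start, and the last letters of that match open its stretch in lower case. In each stretch 1 match is in capitals. Each runs 5′ to 3′ along the gene, so that TTNCATCA is the same site on the other strand.
Asns, chr6:7693210-7693248, minus strand: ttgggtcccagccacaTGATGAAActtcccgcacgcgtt
Chac1, chr2:119351033-119351072, plus strand: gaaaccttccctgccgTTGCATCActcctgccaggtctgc
Slc7a11, chr3:50443637-50443676, minus strand: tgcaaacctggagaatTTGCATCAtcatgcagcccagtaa
Nupr1, chr7:126625557-126625596, minus strand: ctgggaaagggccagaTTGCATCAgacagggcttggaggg
Fgf21, chr7:45615606-45615645, minus strand: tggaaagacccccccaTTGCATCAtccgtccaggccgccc
Atf3, chr1:191183420-191183459, minus strand: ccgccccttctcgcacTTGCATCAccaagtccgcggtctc

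The core of the antioxidant response element, TGACNNNGC, was searched in the same way. It was present in 5 of the 19 genes with a window that rose in the NRF2 target and glutathione S-transferase lists (26.3%), in 2 of the 10 other members with a window, and in 12.2% of all genes tested with a window. This pattern is looser than the first and can hold the AP-1 site TGACTCA, and it overlapped the first pattern in 0 windows. The 5 genes were Gclm, Gsta3, Mgst1, Prdx1 and Txnrd1. Those of 3 genes with strong or even rises are shown, with the core in capitals and read on the other strand (GCNNNGTCA).
Txnrd1, chr10:82859098-82859138, plus strand: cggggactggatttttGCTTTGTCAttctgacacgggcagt
Gclm, chr3:122245407-122245447, plus strand: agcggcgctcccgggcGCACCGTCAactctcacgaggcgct
Prdx1, chr4:116685450-116685490, plus strand: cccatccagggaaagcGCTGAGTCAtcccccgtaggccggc

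NRF2 targets rose as a block. All 10 measured members of that list were higher, with a median of 3.53, and each had 4 mutant values above all controls. Srxn1, sulfiredoxin, which repairs oxidised peroxiredoxins, was at 7.07, 7.34, 7.40 and 7.07 in C10WT and at 14.31, 14.27, 15.30 and 14.89 in C10S59L. The difference was 7.47 ± 0.55 (adjusted p = 7.19e-08). Txnrd1, thioredoxin reductase, rose by 4.31 ± 0.36, Gclm, the modifier subunit of glutathione synthesis, by 4.26 ± 0.39, and Hmox1, heme oxygenase, by 4.02 ± 0.89. Nqo1, a quinone reductase, went from 11.04 to 11.78 up to 14.21 to 15.31. Blvrb, biliverdin reductase B, was at 6.39, 6.91, 7.18 and 6.09 in C10WT and at 12.92, 13.23, 13.47 and 13.26 in C10S59L, a rise of 6.58 ± 0.49. The motif shown above is present in Txnrd1, Gclm and Prdx1 but was not found in the windows of Srxn1 or Nqo1, whose changes were no smaller than that of Prdx1 (1.58).

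Of 24 glutathione S-transferases, the enzymes that couple glutathione to reactive compounds, 13 rose and 2 fell (median 1.07). Gsta2 led with 7.76, 7.59, 9.17 and 9.29 in C10WT against 15.86 to 16.49 in C10S59L, all far above the controls, a difference of 7.69 ± 0.46. Gstm1, Gstm2, Gstm4 and Gstm6 rose by 3.15 to 3.54, but these sequences are close to each other and their probes can share signal. Gstk1, the mitochondrial and peroxisomal form, fell by 2.86 ± 0.51 and Mgst3 by 1.10.

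Chaperones of the cytosol rose more than those of mitochondria, by their medians, and those of the endoplasmic reticulum least. Of 12 cytosolic heat shock proteins 10 rose and 0 fell (median 1.46), with Hsp90aa1, the inducible HSP90, at 4.31 ± 0.37 and Hspb1, small heat shock protein 27, at 2.77 ± 0.38. Hspa1a and Hspa1b, the classic heat-inducible genes, were at -0.09 and 0.26 and did not pass. Of 16 genes of the ATF6 and XBP1 response of the endoplasmic reticulum 5 rose (median 0.50), Xbp1 by 1.52, while Hspa5, its BiP chaperone, was at 0.11. After quantile normalization 3 of these rose and 2 fell. Of 17 mitochondrial chaperones and proteases 11 rose and 0 fell (median 0.85), and 5 rose and 1 fell after quantile normalization. Lonp1, the matrix protease and an ATF4 target, went from 10.06, 11.16, 11.01 and 10.88 to 12.55, 13.12, 13.99 and 13.87, by 2.61 ± 0.44. Htra2, an intermembrane space protease, rose by 2.12 and Afg3l2, an inner membrane protease, by 1.82. Hspa9, the matrix HSP70, was at 15.06 in both groups, with a difference of 0.00 ± 0.32.

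Protein import and cristae genes rose by smaller amounts. Of 22 import genes 14 rose and 1 fell (8 and 2 after quantile normalization), with Chchd4, which oxidises and traps proteins such as CHCHD10 in the intermembrane space, at 1.92 and Tomm40, the outer membrane pore, at 1.68. Of 18 genes of CHCHD10 and its membrane partners 9 rose and 0 fell (5 and 1 after quantile normalization). Stoml2, a scaffold of the inner membrane, rose by 2.17 ± 0.33, and Immt and Chchd6 of the cristae junction complex by 0.94 and 1.35. Opa1, the OMA1 substrate, was at 13.48 ± 0.33 and 13.59 ± 0.19 (difference 0.10, adjusted p = 0.764). The transcript level does not report how OPA1 protein is cut.

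The respiratory chain fell in part. Of 36 complex I subunits 17 fell and 5 rose (median -0.49), and after quantile normalization 20 fell and 1 rose. Ndufa5, an accessory subunit of the matrix arm, was at 17.35, 17.54, 17.38 and 17.40 in C10WT and at 15.30, 15.74, 15.53 and 15.74 in C10S59L, a fall of 1.84 ± 0.23. Ndufs5 fell by 1.79 ± 0.24. Against this, Ndufs8, an iron-sulfur core subunit, rose by 1.33 ± 0.26, and Ndufs7, its neighbour in the complex, by 1.07. In complexes II and III 4 of 13 subunits fell and 1 rose: Uqcr11 fell by 2.12 ± 0.25, whereas Uqcrc2, a core subunit, rose by 2.58 ± 0.54 from C10WT values as far apart as 8.75 and 11.30. ATP synthase subunits were divided (5 higher and 3 lower of 16, and 5 and 7 after quantile normalization), with Atp5e at -1.71 and Atp5d at 1.57.

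In complex IV, general subunit isoforms rose and muscle isoforms fell, each in part. Cox6a1, the general form of subunit 6A, was at 13.65, 14.26, 14.61 and 14.22 in C10WT and at 17.56, 17.52, 17.93 and 17.52 in C10S59L. It rose by 3.45 ± 0.25 (10.9-fold, adjusted p = 6.17e-08), while its heart form Cox6a2 was at 18.87 to 19.09 and 18.67 to 18.90, a difference of -0.21 ± 0.18 that did not pass. Cox8a, the general form of subunit 8, rose by 2.57 ± 0.21, and the muscle form Cox8b fell by 1.42 ± 0.27. For subunit 7A the muscle form Cox7a1 fell by 1.79 ± 0.30 (17.15 to 17.47 in C10WT, 15.50 to 15.70 in C10S59L) and the general form Cox7a2 was at 0.23 and did not pass. The changes of direction of these 4 called isoforms were the same after quantile normalization. Of the 9 other subunits 5 fell and 0 rose, Cox4i1 by 1.61 ± 0.18.

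**Figure D3:**
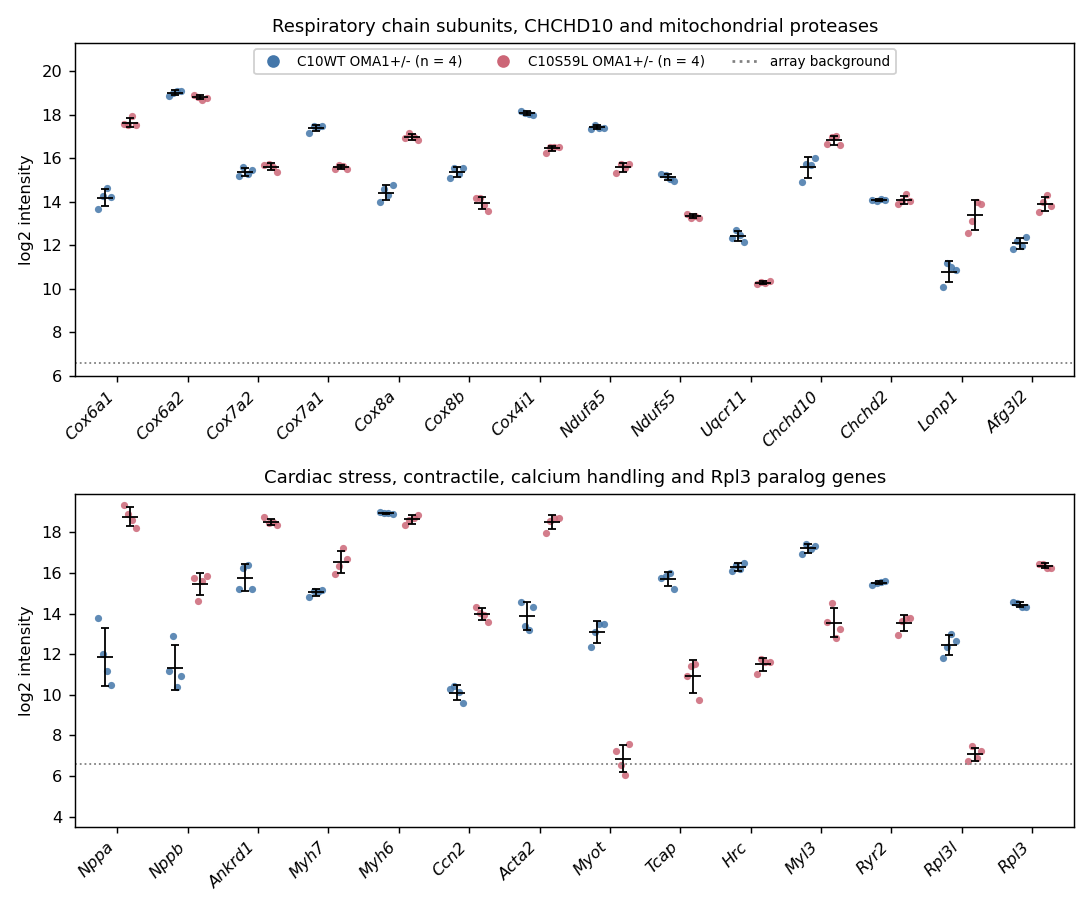
Log2 intensity (vertical axis) of respiratory chain and mitochondrial genes (top) and of cardiac genes (bottom) in the C10WT and C10S59L hearts on OMA1+/-, 1 point per heart, with the mean and SD as black bars and the array background as a dotted line. Cox6a1 and Cox8a are higher and Cox7a1, Cox8b and Cox4i1 lower in all 4 C10S59L hearts, and Rpl3l fell by 5.38 while Rpl3 rose by 1.91.

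The protein synthesis machinery changed in the same hearts. Of 63 cytosolic ribosomal proteins 38 rose and 1 fell (median 0.64), but after quantile normalization 16 rose and 2 fell with a median of 0.18, so the size of this shift depends on the scaling, and with the atrial markers as a covariate 25 rose and 1 fell. The fall was that of Rpl3l, the muscle paralog of ribosomal protein L3, at 11.81, 12.37, 12.99 and 12.66 in C10WT and 6.76, 7.47, 6.89 and 7.21 in C10S59L. It fell by 5.38 ± 0.39 (adjusted p = 6.68e-08) while Rpl3, the general form, rose by 1.91 ± 0.16. Of 77 mitochondrial ribosomal proteins 22 rose and 9 fell (13 and 16 after quantile normalization), from Mrpl52 at 2.78 to Mrps35 at -1.35.

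In metabolism, single enzymes stood out more than pathways. Of 18 genes of glycolysis 8 rose and 4 fell, and after quantile normalization 4 rose and 5 fell. Pgam1, the general phosphoglycerate mutase, rose by 4.82 ± 0.35, Pfkp, the platelet phosphofructokinase, by 4.58 ± 0.53, and Slc2a1, the general glucose transporter GLUT1, by 3.56 ± 0.28. Their muscle counterparts Pgam2, Pfkm and Slc2a4 were at -0.45, -1.28 and -0.51, of which Pfkm passed the test. Eno3, muscle enolase, fell by 2.13 and Hk2 by 1.38, whereas Hk1 rose by 1.48. Of 25 genes of fatty acid uptake and oxidation 7 rose and 5 fell with a median of 0.02 (-0.40 after quantile normalization). Pdk4, the kinase that shuts pyruvate dehydrogenase, was at 9.62, 11.65, 11.92 and 11.99 in C10WT and at 15.23, 15.51, 15.43 and 14.84 in C10S59L, a rise of 3.96 ± 0.48. Etfa, which passes electrons from fatty acid oxidation to the chain, fell by 1.37 and Lpl by 1.14.

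Of 11 measured genes of NAD synthesis 3 rose, 2 fell and 6 did not pass (2 rose and 2 fell after quantile normalization). The largest rise and the largest fall were those of Nmrk2 and Nampt. Nmrk2, the muscle nicotinamide riboside kinase, was below background in all C10WT hearts and at 11.17, 9.68, 12.06 and 12.59 in C10S59L hearts, at least 4.78 higher (adjusted p = 1.87e-06). Nampt, the main enzyme of the salvage route, fell from 13.63, 14.10, 14.29 and 14.11 to 11.92, 12.77, 12.48 and 12.55, by 1.60 ± 0.30. Of 46 mitochondrial carriers 9 rose and 7 fell (4 and 7 after quantile normalization), about the share over all genes. Slc25a39, the glutathione carrier, rose by 3.81 ± 0.39, and Slc25a42, the coenzyme A carrier, fell by 1.91 ± 0.49. Of 15 regulators of mitochondrial biogenesis 1 rose and 2 fell (0 and 5 after quantile normalization), Tfam by 0.73 (a call lost without C10S59L replicate 1, without C10WT replicate 1 or 4, and with the atrial markers as a covariate), and Ppargc1a, which encodes PGC-1alpha, was at -0.50 and did not pass.

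Of 11 autophagy and mitophagy receptor genes 3 rose and 1 fell, and after quantile normalization 1 rose and 3 fell. Sqstm1, the autophagy receptor p62, was at 13.57, 14.04, 14.10 and 13.74 in C10WT and at 17.31, 17.38, 17.70 and 17.40 in C10S59L. It rose by 3.59 ± 0.32 (adjusted p = 3.96e-07), whereas Map1lc3a, an LC3 gene, fell by 1.98 ± 0.22 and Map1lc3b rose by 0.89, the last a call lost after quantile normalization and without C10WT replicate 1. Cdkn1a, which encodes the cell cycle inhibitor p21, rose by 5.92 ± 0.52, from 5.78 to 7.13 up to 11.94 to 13.23. In its list of 12 p53 target and growth arrest genes 5 rose and 1 fell, the others of the rises being Gadd45a (2.43), Gadd45g (2.18), Phlda3 (at least 0.50) and Mdm2 (1.38).

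**Figure D4:**
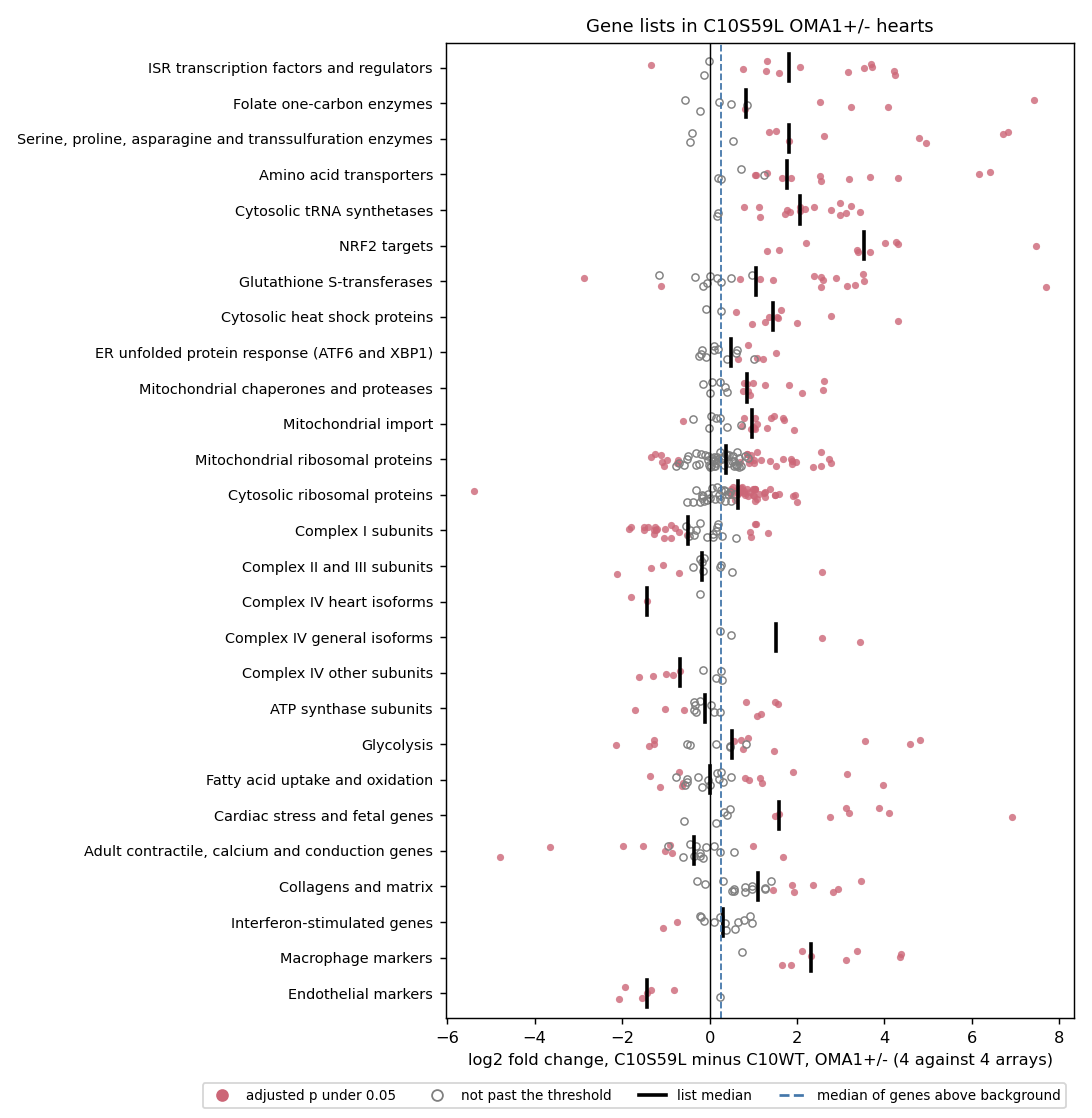
Log2 difference between C10S59L and C10WT hearts on OMA1+/- (horizontal axis) of each measured member of 27 gene lists, 1 point per gene, filled where adjusted p is under 0.05, with the list median as a black bar and the median of genes above background (0.26) as a dashed line. The NRF2 target list has the highest median of those drawn (3.53), and the medians of complex I (-0.49) and endothelial markers (-1.43) lie below 0.

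Of 13 cardiac stress and fetal genes 8 rose and 0 fell (median 1.58). Nppb, which encodes the B-type natriuretic peptide, was at 11.18, 12.91, 10.37 and 10.92 in C10WT and at 15.73, 14.63, 15.61 and 15.84 in C10S59L, a rise of 4.11 ± 0.72 (adjusted p = 3.34e-04). Nppa, which encodes the atrial peptide, was at 13.77, 12.03, 11.18 and 10.48 in C10WT and at 19.33, 18.90, 18.63 and 18.24 in C10S59L, a rise of 6.91 ± 0.94. Since Nppa is made mostly in atria, the other atrial genes are given beside it. Myl7, the atrial light chain, was at 17.60, 15.36, 6.75 and 11.91 in C10S59L and 5.89 to 10.99 in C10WT, and Sln, sarcolipin of the atrium, at 16.91, 15.59, 6.43 and 11.82 against 7.93 to 9.17. C10S59L replicate 3 thus had Myl7 and Sln within or below the control values and Nppa at 18.63. Bmp10, an atrial ligand of the TGF-beta family, was at 8.65, 15.44, 11.67 and 12.55 and below background in C10WT, at least 5.49 higher. Of 8 atrial markers 3 rose, Kcna5 fell, and 4 did not pass, and without C10S59L replicate 3 the count that rose was 6. With the atrial marker mean as a covariate the count of cardiac stress genes that rose was again 8. That mean includes Nppa, which is in both lists, and was mostly higher in C10S59L (9.80 to 13.95) than in C10WT (7.67 to 9.90). The covariate thus cannot separate atrial tissue from genotype, and the part of atrial tissue was not tested.

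Ankrd1, a stretch-responsive titin-binding protein, rose by 2.75 ± 0.42, Ccn2, connective tissue growth factor, by 3.87 ± 0.35, Rcan1, the calcineurin inhibitor, by 3.18 ± 0.52 and Fhl1, a sarcomere stress protein, by 3.11 ± 0.44. Myh7, the fetal myosin heavy chain, was at 14.80 to 15.18 in C10WT and 15.93 to 17.22 in C10S59L. Its rise of 1.50 ± 0.46 (adjusted p = 0.0167) was lost after quantile normalization and without C10S59L replicate 3. Myh6, the adult form, was at 18.95 ± 0.03 and 18.64 ± 0.22 and did not pass. Acta2, smooth muscle actin, which the stressed heart muscle also makes, rose by 4.63, from 13.18 to 14.58 up to 17.98 to 18.71, while Myh11, the smooth muscle myosin, was at -0.60 and did not pass. Which cells carried the rise of Acta2 was not tested.

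Among adult contractile genes, large falls were those of single members. Myot, the Z-disc protein myotilin, was at 12.35, 13.09, 13.47 and 13.50 in C10WT and at 7.23, 6.55, 6.07 and 7.60 in C10S59L, the largest fall under the naming rule (-6.24 ± 0.60). Tcap, which caps titin at the Z-disc, went from 15.74, 15.85, 16.01 and 15.22 to 10.95, 11.41, 11.54 and 9.76, a fall of 4.79 ± 0.36. Hrc, which binds calcium in the sarcoplasmic reticulum, fell by 4.80 ± 0.38 with 4 mutant values between 11.02 and 11.75. Ryr2, the calcium release channel, fell by 1.98 ± 0.25, Myl3, the ventricular essential light chain, by 3.66 ± 0.65, and Kcnj2, an inward rectifier potassium channel, by 1.53. Of 21 adult contractile, calcium and conduction genes 7 fell and 2 rose (11 and 2 after quantile normalization, 4 and 2 with the atrial markers as a covariate), and Atp2a2, the calcium pump, and Tnnt2 were at -0.15 and -0.09 and did not pass. The cardiomyocyte marker list, which shares Myl3, Ryr2 and Tnni3 with it, fell in 3 of 8 members (5 after quantile normalization), of which Tnni3 was lost with the atrial markers as a covariate and without C10WT replicate 4 or C10S59L replicate 2 or 3. Other falls named by the rule were Ces1d, a lipase (-4.40, a call lost without C10S59L replicate 3), Filip1l (-3.96), Aqp7, the glycerol channel (-3.42), Ppm1k, the phosphatase that activates branched-chain amino acid breakdown (-3.41), and Efnb3, ephrin-B3 (-3.23). Lgals4, galectin-4, and Smco1 were below background in all C10S59L hearts, so that their falls are bounds (-4.87 and -2.19 or more).

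Macrophage and endothelial markers moved in opposite directions. Of 9 macrophage markers 8 rose and 0 fell (median 2.32), and 9 rose without C10S59L replicate 1. Csf1r, the receptor that macrophages depend on, was at 8.28, 7.83, 9.42 and 9.04 in C10WT and at 12.15, 13.70, 12.91 and 13.24 in C10S59L, a rise of 4.36 ± 0.39. C1qb, a complement chain, rose by 4.38 ± 0.47. Of 7 endothelial markers 6 fell (median -1.43), Kdr, the VEGF receptor, by 2.07 ± 0.38 and Cdh5, VE-cadherin, by 1.93 ± 0.33, while Eng was at 0.25 and did not pass. In whole hearts, fewer cells of a type and less RNA per cell cannot be told apart. Of 7 lymphocyte markers 0 passed, and of 7 neutrophil markers, all below background in both groups, 0 rose and 1 fell. Of 14 interferon-stimulated genes 0 rose and 2 fell (Rsad2 and Xaf1). The fall of Rsad2 (0.74) was lost with the atrial markers as a covariate and without C10WT replicate 1 or 2 or C10S59L replicate 1.

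Chemokines were mixed, with 8 higher and 7 lower of 37, about the share over all genes. Of the 37, 16 were below background in both groups. Cxcl13, the attractant of B cells, was at 6.72, 6.98, 7.34 and 7.17 in C10WT and at 11.51, 15.34, 14.08 and 15.19 in C10S59L, a rise of 6.98 ± 0.60 in hearts whose lymphocyte markers averaged below background. Ccl12 rose by 3.06 and Ccl9 by 2.23, both attractants of monocytes. Ccl21a, a lymph vessel chemokine, fell by 2.30, and Ccl21b and Ccl21c had the same values on every array (-2.68). These 2 are 1 measurement, although the counts above are by symbol. Ccl11, eotaxin, fell by 2.07.

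Growth factors and matrix genes rose in part. Of 13 TGF-beta family ligands and binding proteins 7 rose and 1 fell. Tgfb2 was at 9.32, 8.82, 9.09 and 8.57 in C10WT and at 12.88, 11.88, 13.79 and 13.85 in C10S59L, a rise of 4.15 ± 0.38. Inhba, the activin A subunit, was below background in C10WT and at 9.91, 9.34, 9.60 and 10.21 in C10S59L, at least 3.17 higher. Of 20 collagen and matrix genes 7 rose and 0 fell. Postn, periostin, rose by 2.36 ± 0.60 with values of 14.28, 11.04, 13.25 and 11.98 that overlapped the controls (9.55 to 11.18). Timp1, a protease inhibitor, was at least 2.17 higher and highest in replicate 1 (10.33). Col1a1 and Col3a1, the main fibrillar collagens, were at 0.80 and 1.26 and did not pass. Fibroblast markers averaged 13.29 to 14.32 against 12.46 to 12.80, and 3 of 7 rose.

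The remaining genes of the largest rises belong to no list above. Uchl1, a ubiquitin hydrolase best known from neurons, was below background in all C10WT hearts (5.47, 5.63, 6.32 and 5.74) and at 14.07, 13.90, 15.01 and 13.80 in C10S59L hearts. It was at least 7.61 higher (adjusted p = 2.66e-07). Ncam1, the neural cell adhesion molecule, was at 7.28, 6.06, 6.21 and 5.39 and rose to 12.64, 13.25, 14.11 and 13.58, by a fitted 7.16 ± 0.68, with 3 of 4 C10WT arrays below background. Tubb3, the neuronal beta-tubulin, was at least 3.40 higher and was the 1 gene of 6 measured Schwann cell and neuronal markers that rose, while Th and Dbh, which mark sympathetic nerves, were below background in all 8 hearts. Pla2g7, the lipoprotein-associated phospholipase of macrophages, rose from 6.96 ± 0.69 to 13.46 ± 0.47.

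Whether the S59L effect depended on OMA1 was read from the difference between its effects on OMA1+/- and on OMA1-/-, each against C10WT hearts of that genotype. Of 19505 genes 14 differed (0.0718%), 10 with a more positive effect on OMA1+/-, against 1584 at an unadjusted p under 0.05. Aldh18a1 rose by 4.94 on OMA1+/- and by 2.06 on OMA1-/- (difference 2.88 ± 0.51, adjusted p = 0.0388), and its level in C10S59L OMA1-/- hearts was 9.18 ± 1.01 against 11.70 to 12.48 here. Phgdh rose by 4.79 and by 2.52 (difference 2.27 ± 0.37) and Yars, a tRNA synthetase, by 2.99 and by 0.76 (2.23 ± 0.36). Inhba was higher by 3.81 as fitted on OMA1+/- and by 1.16 on OMA1-/- (2.65 ± 0.27, adjusted p = 3.58e-04). Ccnd2, cyclin D2, rose by 2.64 and was at 0.16 on OMA1-/-, and Clec12a, a myeloid inhibitory receptor, rose by 3.57 and was at 0.61. The reverse held for Lcn2, lipocalin 2, which was 6.27 ± 0.84 and 7.07 ± 0.46 in the OMA1+/- groups and did not pass there, but went from 6.56 ± 0.54 to 12.27 ± 0.52 on OMA1-/- (difference -4.91 ± 0.54). Etfbkmt, a methyltransferase of the electron transfer flavoprotein, fell by 1.63 on OMA1+/- and rose by 1.01 on OMA1-/-.

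Most ISR genes did not pass this test. Atf4 was higher by 3.72 on OMA1+/- and by 1.67 on OMA1-/- (difference 2.05 ± 0.48, adjusted p = 0.154), and Mthfd2 by 7.42 and 5.68 (1.74 ± 0.73, adjusted p = 0.532). The list medians on OMA1+/- and OMA1-/- were 1.82 and 1.12 for ISR regulators, 1.82 and 0.45 for serine, proline, asparagine and transsulfuration enzymes, 2.07 and 0.95 for cytosolic synthetases, and 3.53 and 2.64 for NRF2 targets. Lonp1 was at 2.61 and 0.53 (difference 2.08 ± 0.63, adjusted p = 0.313). The count of 14 was sensitive to single arrays, from 3 to 38 with each of the 16 left out, and Sult3a2 and Snap25, also called, were at or below background in most groups. Of the 4 C10S59L OMA1-/- hearts, 2 also had fat cell marker means of 12.47 and 13.90.

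**Figure D5:**
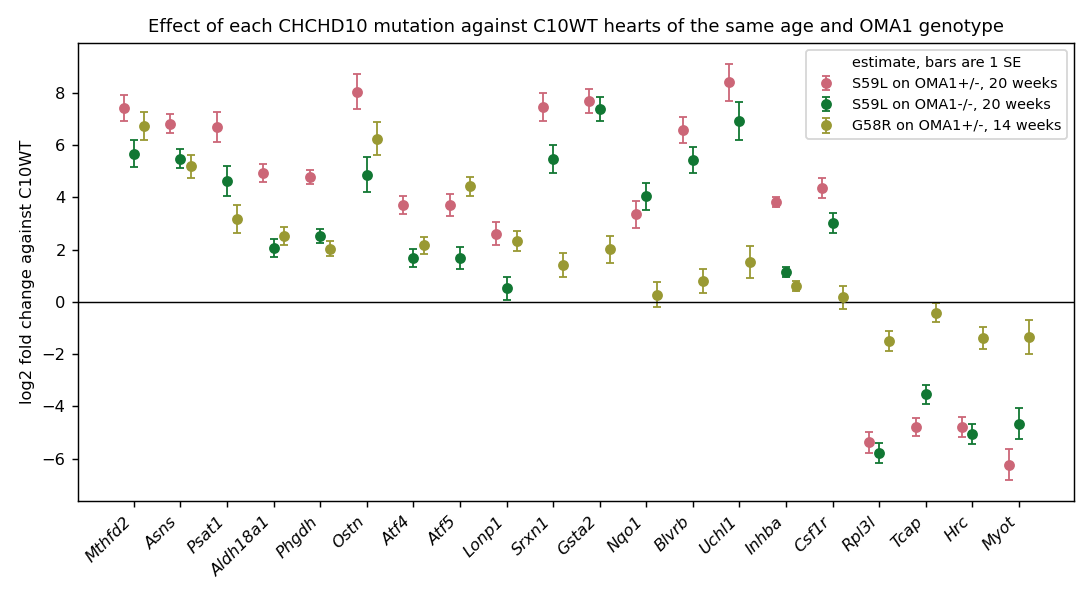
Log2 difference from C10WT (vertical axis, mean ± 1 SE) of 20 genes for S59L on OMA1+/- and on OMA1-/- at 20 weeks and for G58R on OMA1+/- at 14 weeks, each against 4 C10WT hearts of the same age and OMA1 genotype. For S59L and G58R on OMA1+/- Mthfd2 lies at 7.42 and 6.75, Srxn1 at 7.47 and 1.41 and Tcap at -4.79 and -0.41.

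The S59L effect was then set against that of G58R on OMA1+/-, with the reservation that mutation, age and cohort cannot be told apart. The effects differed in 1625 genes (8.33%), 1034 of them more positive for S59L. After quantile normalization 881 were more positive and 869 more negative. The count was 1072 to 2674 with an array left out and 2901 with array weights. Mthfd2 was at 7.42 for S59L and 6.75 for G58R (difference 0.67 ± 0.77), Asns at 6.82 and 5.19 (1.63 ± 0.60, adjusted p = 0.0931) and Ostn at 8.05 and 6.25 (1.80 ± 0.90), and none of these differences passed the test. Of the 10 NRF2 targets 9 differed, the list medians were 3.53 and 0.97, and Srxn1 was at 7.47 and 1.41 (difference 6.06 ± 0.64, adjusted p = 4.64e-07). Of 24 glutathione S-transferases 10 differed, with Gsta2 at 7.69 and 2.01. Of 9 macrophage markers 7 differed (medians 2.32 and 0.23), but their mean was 8.92 to 10.80 in the 14-week C10WT hearts against 8.93 to 9.50 at 20 weeks, and Csf1r was 10.44 ± 0.92 against 8.64 ± 0.72. Tcap was at -4.79 and -0.41, Hrc at -4.80 and -1.37, Rpl3l at -5.38 and -1.50, and Uchl1 at 8.41 and 1.53 as fitted. The controls of the cohorts were not alike: Srxn1 was 7.22 ± 0.18 and 7.61 ± 0.12 in C10WT hearts at 20 and 14 weeks, but Nppa was 11.87 ± 1.42 and 17.64 ± 2.31, and Car3 and Retn, genes of fat cells, 5.22 and 4.69 against 14.64 and 10.89. Cxcl13, with the second largest difference, was 7.05 ± 0.26 and 12.40 ± 1.32 in C10WT and at -2.57 for G58R. Car3, Retn, Scd1, Nppa and Cxcl13 were among the 8 largest differences, so their values rest on these control levels. Those of Car3, Retn and Scd1 also rest on C10S59L replicate 1, the heart with the highest fat cell marker mean of its group. Car3 was at 16.76, 7.29, 4.41 and 10.86 in C10S59L replicates 1 to 4, and Scd1 at 18.26, 11.12, 10.82 and 13.52. None of Car3, Retn and Scd1 passed for S59L against C10WT on OMA1+/- (limma, adjusted p = 0.103, 0.191 and 0.108).

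Females and males were compared last. No gene had an S59L effect that differed between the sexes (0% of genes, limma, with 794 at an unadjusted p under 0.05), in a test with 2 hearts per sex and group. Gsta2 rose by 8.43 in females and 6.94 in males, Nmrk2 by 5.48 and 7.18 as fitted, and Mthfd2 by 6.90 and 7.94. The fat cell markers were highest in a female (replicate 1), and the part of these markers in the test was not tested.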

How the data were processed

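Total RNA of whole mouse hearts was hybridised to 1-colour Affymetrix Clariom S Mouse arrays, 1 array per animal. The deposited values are log2 gene-level intensities made by the authors with Transcriptome Analysis Console (SST-RMA background correction, normalization and summarization). The sources used here do not state whether all 32 arrays were normalized in one run. Of 28846 probe sets, 6640 were controls and 2634 had no symbol. For 55 genes with several probe sets the one with the highest mean was kept, which left 19505 genes, and 39 of these had values identical to those of another gene. An array has no read depth, and precision is limited by how many arrays there are. The array background (6.59) was set from 1410 odorant and pheromone receptor genes, as the 95th percentile of their mean values. Where all 4 arrays of a group lay below it, a change is given as "at least", from the brighter mean to the background.

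Groups come from the labels, which say that each heart is a separate animal. Group means were fitted with limma 3.58.1 (eBayes, R version 4.3.3) on the 16 arrays of the 20-week cohort, or of all 32 for S59L against G58R, without covariates. Tests were two-sided, with Benjamini-Hochberg adjustment over all genes. The fit was tested on simulated data first. In the compared groups the pairwise correlations of arrays were at most 0.9905, so no array was counted as a copy of another. Alternatives were the arrays in the fit, sex, a replicate block, fat and atrial marker covariates, quantile normalization, a background filter, variance options, array weights and each array left out.

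Named genes are the 15 largest rises and 12 largest falls that passed the test, lay above background and did not overlap between groups, without predicted genes, the 4 (or fewer) lowest-p members of every list with a call, a fixed set of genes, and up to 8 genes of each further contrast. Others were named after their values were seen. The members and lists were chosen with earlier results of these data known. Lists were described by counts and medians only. Promoter windows are those of RefSeq.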

Additional observations from a re-analysis of the deposited data

Results flagged for a closer look

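Of 418 sets of 4 hearts examined for the named genes and marker means, 24 had 1 heart far from the other 3. Chance flags about 1 in 20 groups. In C10S59L replicate 1 these were Asns (15.49), Ckm, muscle creatine kinase (13.15), Cox4i1 (16.25), Iars (12.64), Ryr2 (12.97), Tfam (8.52) and Tfb2m (12.91), and the brown fat marker mean (11.72). In C10S59L replicate 2 it was Ccn1, a matrix signalling protein (13.83), and in replicate 3 they were Cox6a1 (17.93), Slc25a39 (14.76) and Sox10 (5.14, below background). In C10WT replicate 1 they were Atf4 (12.42), Cox7a1 (17.15), Pdk4 (9.62), Slc25a39 (9.05) and Txnrd1 (9.17). In C10WT replicate 2 they were Mpo (5.19), Pgam1 (7.86) and the neutrophil marker mean (4.82). The erythroid marker mean stood apart in C10WT replicate 3 (7.23), and Cdh5 (13.98), Gadd45a (7.27) and Smco1 (8.97) in replicate 4.

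The S59L effect differed between OMA1+/- and OMA1-/- hearts in 14 genes by the test of the difference. It was more positive on OMA1+/- for Clec12a (2.96), Aldh18a1 (2.88), Inhba (2.65), Ccnd2 (2.49), Phgdh (2.27), Yars (2.23), Cpeb1 (2.0), Vgll2 (1.96), Nipsnap3b (1.80) and Ddx54 (1.42). It was more negative for Lcn2 (-4.91), Etfbkmt (-2.64), Sult3a2 (-2.44) and Snap25 (-2.01).

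The 8 largest differences between the S59L and the G58R effect on OMA1+/- were those of Car3 (9.95), Cxcl13 (9.55), Retn (7.34), Scd4 (6.95), Uchl1 (6.87), Scd1 (6.47), Nppa (6.34) and Srxn1 (6.06). Car3, Retn and Uchl1 were below background in all 4 C10WT hearts at 20 weeks, so their differences are fitted values and not bounds. Mutation, age and cohort cannot be told apart in them.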

How the results depend on the processing

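With 4 arrays a group, the count of genes that differed between C10S59L and C10WT hearts stayed within 1.5 times of 7117 in every alternative run, from 4902 (only genes above background) to 8589 (array weights), and from 5429 to 7483 with an array left out. The 4902 were called among 9911 genes and the 7117 among 19505, so these 2 counts are not on the same footing. Hearts with the same replicate number had correlations of their deviations of 0.21, 0.06, 0.15 and 0.21 for numbers 1 to 4. C10S59L replicates 1, 3 and 4 were closest to the control of their own number and replicate 2 to C10WT replicate 1 (0.10). In both groups numbers 1 and 2 were females and 3 and 4 males, so hearts of the same number also shared a sex. These values do not settle whether the numbers mark pairs, and the main fit did not pair them. A replicate block gave 7086 genes, and 8246 with the 8 compared arrays alone.

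The 14 genes of the OMA1 interaction became 49 with all 32 arrays, 22 with the fat marker covariate, 22 above background and 24 with array weights. The counts were 3 to 38 with an array left out: 3 without C10WT OMA1+/- replicate 3 or C10S59L OMA1+/- replicate 2 or 3, 5 without C10WT OMA1+/- replicate 4, 7 without C10WT OMA1+/- replicate 2 or C10S59L OMA1+/- replicate 4, 26 without C10S59L OMA1+/- replicate 1, 9, 4 and 7 without C10WT OMA1-/- replicates 1, 3 and 4, and 38 and 9 without C10S59L OMA1-/- replicates 1 and 3. The replicate block gave 12.

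The 1625 genes that differed from the G58R effect became 2901 with array weights, and 1072 to 2674 with an array left out (without 14-week C10WT OMA1+/- replicate 3 and 4). After quantile normalization 881 were higher and 869 lower. The sex test gave 0 to 16 genes with an array left out: 7 without C10WT replicate 1 and 16 without C10S59L replicate 2. The cause of these moves was not tested.

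Of 195 named genes 188 were called. Of these, 21 lost the call in at least 1 of 11 alternatives and 14 with an array left out. The sign changed for 4 genes that were not called: Car3 (0.00) and Retn (-0.41) with the atrial covariate, Oma1 (-0.40 with quantile normalization, -0.14 to 0.16 with an array left out) and Chchd2 (0.08 with the fat covariate, 0.32 with the atrial one, -0.09 to 0.05 with an array left out). The atrial covariate and the list counts under alternatives were chosen after seeing the data.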

Other observations

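Clock and immediate early genes, which shift with the hour and handling of a dissection, were mixed in C10S59L hearts. Of 15 clock genes 3 rose and 2 fell (1 and 2 after quantile normalization), with Per3, a period gene, lower by 2.08 ± 0.55. Of 13 immediate early genes 2 rose and 1 fell, and Nr4a3, an orphan nuclear receptor, was higher by 4.21. Of 18 genes of the TCA cycle and pyruvate dehydrogenase 7 rose and 4 fell, and after quantile normalization 5 rose and 7 fell.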
